A study of Mus musculus with 38 samples.

Results

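Ribosome-bound RNA of mature oligodendrocytes was set against total RNA of the whole cortex, on 8 of the 38 arrays of the series. All 3 arrays labelled Cortical Mature Oligodendrocytes, from the line whose titles name Cnp1, and all 5 arrays labelled Cortex were used, and no array was left out. A gene was measured where 1 probe set named it, which gave 15644 genes. Of these, 9799 were tested, namely those above a signal of 50 (log2 5.64) in at least 3 of the 38 arrays; a mean level under that limit is called dim here.

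The series profiled cell types of the normal adult mouse cortex and Olig2 cells of a mouse glioma model by translating ribosome affinity purification, in which a tagged ribosomal protein is made in one cell type and the RNA on its ribosomes is pulled down. The bound RNA came from a reporter line named after Cnp, and the cortex total RNA was labelled Total RNA. Both groups were adult cortex without tumour from mice of mixed c57/bl6j, FVB and Swiss-Webster strain, and the design text gives pools of at least 2 mice for the cell types; whether the cortex total RNA came from reporter mice, and the meaning of the letters UB in its titles, are not given in the sources used here. RNA was biotin-labelled after 2 cycles of amplification. The comparison joins a cell type with a kind of RNA: a gene can be higher because mature oligodendrocytes hold more of its RNA or because more of its RNA is on ribosomes, and these cannot be told apart. Nor can fewer cells of a type be told apart from less RNA per cell.

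Mature oligodendrocytes wrap the axons of the central nervous system in myelin, a multilayered membrane rich in cholesterol and galactolipids and held together by a small set of abundant proteins. They arise from progenitors marked by Pdgfra under transcription factors that include Olig2, Sox10 and, at the last step, Myrf. Beyond insulation they supply axons with energy metabolites, take up potassium and store iron.

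Cnp, Mog and Mobp, the genes that mark this population, were all far higher in the bound RNA. Levels are log2 signals, on which a step of 1 is a doubling of signal, and they are compared between arrays for one gene and never between genes. Cnp, the myelin phosphodiesterase after which the line is named, stood at 14.25, 14.19 and 14.23 in the 3 bound arrays and at 9.33, 9.51, 8.73, 9.32 and 9.27 in the 5 cortex total arrays. The bound arrays lay within a narrow band and the groups did not overlap, a difference of 31.9-fold (log2 difference 5.0, SE 0.40, adjusted p = 3.06e-12). Adjusted p values here come from limma, corrected by the Benjamini-Hochberg method for all 9799 genes tested. Mog, a myelin surface glycoprotein, stood at 14.55, 14.62 and 14.53 in bound RNA and 9.19, 9.49, 8.86, 9.15 and 9.28 in cortex total RNA. Again no array of one group reached the other, and Mog was 41.4-fold higher (SE 0.73 of a log2 difference of 5.37, adjusted p = 1.54e-07). Mobp, a protein of the compact myelin, stood at 11.32, 11.35 and 11.29 against 4.88, 4.84, 4.87, 4.86 and 4.58. All 5 cortex arrays were dim for Mobp, so its difference is a lower bound, at least 51.1-fold (adjusted p = 2.47e-12); such bounds take each dim array at log2 5.64.

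The promoter sequences of these genes and of Mag are shown because they are the start regions of the messages that set this population apart, and because 3 of these 4 hold the core of the sequence bound by Myrf, the transcription factor of myelin genes. The 250 bases before the gene start were read from the RefSeq promoter table (build GRCm38.p6), 5′ to 3′ on the gene's strand, with CTGGCAC or CTGGTAC, read on either strand, in capitals.
Cnp, chr11:100574689-100574938, plus strand: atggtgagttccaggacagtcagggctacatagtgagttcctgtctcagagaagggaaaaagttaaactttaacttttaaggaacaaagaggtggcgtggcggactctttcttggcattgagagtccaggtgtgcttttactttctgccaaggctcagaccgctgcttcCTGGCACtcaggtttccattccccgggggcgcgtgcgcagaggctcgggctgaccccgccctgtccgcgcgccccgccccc
Mog, chr17:37023399-37023648, minus strand: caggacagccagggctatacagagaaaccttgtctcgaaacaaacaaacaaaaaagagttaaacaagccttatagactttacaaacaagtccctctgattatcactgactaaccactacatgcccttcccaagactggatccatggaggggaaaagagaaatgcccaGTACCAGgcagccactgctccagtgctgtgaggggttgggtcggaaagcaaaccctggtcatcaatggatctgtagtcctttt
Mag, chr7:30914923-30915172, minus strand: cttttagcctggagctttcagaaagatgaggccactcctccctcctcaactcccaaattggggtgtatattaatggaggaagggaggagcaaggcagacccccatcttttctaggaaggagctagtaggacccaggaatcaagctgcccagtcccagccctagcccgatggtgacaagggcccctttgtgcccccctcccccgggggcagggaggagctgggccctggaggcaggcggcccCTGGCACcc
Mobp, chr9:120149492-120149741, plus strand: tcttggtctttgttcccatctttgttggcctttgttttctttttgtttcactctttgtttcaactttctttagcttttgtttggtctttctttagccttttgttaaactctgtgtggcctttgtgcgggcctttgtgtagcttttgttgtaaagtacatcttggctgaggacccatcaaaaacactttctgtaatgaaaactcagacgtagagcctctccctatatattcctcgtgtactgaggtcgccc
The match began at position -81 from the gene start in Cnp, -83 in Mog and -9 in the Mag promoter shown, and Mobp had none in its window. Windows of 300 bases (250 before to 50 after a gene start) were also read. Of the 26 windows of tested members of the myelin membrane list described below, 6 held a match (23.1%). These lay in 5 of the 17 tested members with a window, Opalin and Tmem125 being the others. Overlapping windows of Mag held the same site, at -68 and -9 from their gene starts, so that site was counted more than once. A further Mag window held no match. The share was 7.1% over all 32851 windows in the table, 6.95% for genes higher in the bound RNA, 6.77% for genes lower and 6.51% for genes that were not called. The motif was thus about as common among the higher genes at large as among the rest, and the share of the myelin list was not tested. A match is a description of letters, no binding was measured here, and the promoters shown were chosen after the matches were seen.

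Differences between the groups were widespread. A gene was called where the adjusted p was under 0.05 and the difference at least 2-fold. By this rule 2465 genes were higher in mature oligodendrocyte bound RNA (25.2% of those tested) and 2716 were lower (27.7%), and counts for any gene list below are to be read against these shares. Of the higher genes 811 were dim in cortex total RNA or in bound RNA and 240 in both; of the lower genes 812 and 354 were. Among genes above the dim limit in both groups, 93 rose and 15 fell at least 16-fold, so that measured differences of that size lay mostly on the oligodendrocyte side. Of genes dim in 1 group, 55 higher and 10 lower ones had a bound of at least 16-fold. Medians of lists below are of fitted differences. With dim arrays raised to the limit, some medians given below against cortex total RNA moved by 0.1 or more. They were those of the myelin membrane (4.90), lipid (2.13), cholesterol (0.50), axon support (2.26), connexin (-0.18), receptor (0.00) and voltage-gated channel (-2.43) lists. Medians of several cell type marker lists moved as well. Those of progenitor (-1.09), committed precursor (0.37), endothelial (-0.92), pericyte (-1.43) and ependymal (-0.96) markers went to 0.00. The astrocyte median went from -1.56 to -1.28 and the microglial median from -1.75 to -0.58.

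The fifth cortex array lay apart from the other 4 most often. Of 7387 tested genes above the dim limit in cortex total RNA, 1127 (15.3%) had 1 array set off by more than 0.71 of the range of the 5 (Dixon's critical value, which chance passes for about 1 gene in 20), and for 577 of these it was the fifth. Without that array 2464 genes were higher and 2714 lower. By correlation over all genes the arrays within each group were alike. The lowest correlation between 2 arrays was 0.9942 in bound RNA and 0.9895 in cortex total RNA, and the median gene SD was 0.0727 and 0.1567. The authors' background correction appears to have been run on each group of arrays by itself, since every group shares a minimum of its own; this can narrow the spread within groups and shifts the scale between them, which quantile normalization over the 38 arrays was used to restore. The median log2 difference of all tested genes was -0.04 with that scale, 0.07 with the values as deposited and 0.19 with the arrays scaled on spike-in controls, and single genes moved by more: the log2 difference of Snap25 went from -1.18 to -0.73 and that of Tcf7l2 from 1.09 to 0.35 with the values as deposited. A p value rests on a gene's spread pooled from all 12 groups, tumours included, and the labels do not tell whether same-group arrays came from separate mice, so it may measure technical spread in part.

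**Figure D1:**
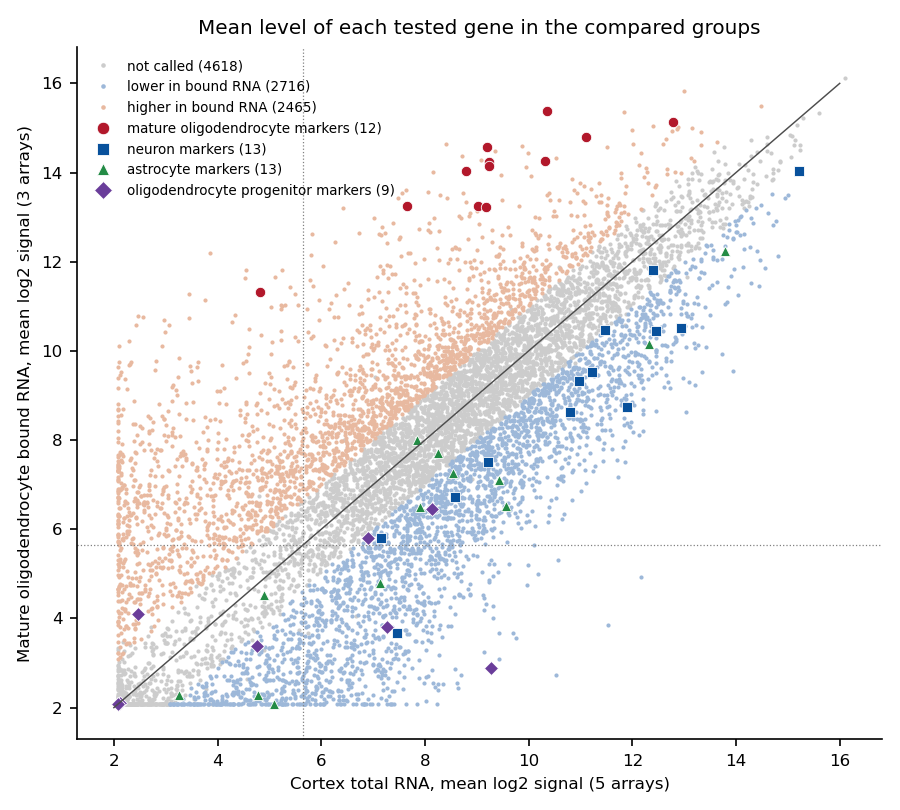
Each point is 1 of 9799 tested genes, by its mean log2 signal in cortex total RNA (x axis, 5 arrays) and in mature oligodendrocyte bound RNA (y axis, 3 arrays); the line marks equal levels and the dotted lines the dim limit of log2 5.64. All 12 mature oligodendrocyte markers lie above the line, while 10 of 13 neuron and 9 of 13 astrocyte markers were called lower.

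Proteins of the myelin membrane rose nearly as a body. Of 21 tested members of a list of compact and non-compact myelin membrane proteins, 20 were higher and 1 was lower, with a median log2 difference of 5.0. The largest measured rises were those of Cd9, a tetraspanin of the outer myelin layers, and Tmem125, a membrane protein. Cd9 stood at 12.71, 12.52 and 12.65 in bound RNA and at 5.80, 5.60, 5.49, 5.57 and 6.66 in cortex total RNA, 112-fold higher (adjusted p = 1.44e-14). The fifth cortex array was the highest of its group and still far below the bound arrays. Tmem125 stood at 13.25, 13.16 and 13.23 against 6.52, 6.44, 6.44, 6.86 and 5.79, also 112-fold higher (adjusted p = 9.9e-10). Jam3, a junction adhesion molecule, and Gpr37, a receptor-like protein of the myelin sheath, followed at 80.9-fold and 75.2-fold. Mag, the adhesion protein of the innermost myelin layer that faces the axon, rose 48.4-fold, from 7.65 ± 0.26 in cortex total RNA (mean ± SD, n = 5) to 13.25 ± 0.12 in bound RNA (n = 3). Opalin, Pllp and Cldn11, the last being the tight junction protein of the sheath, rose 29.8-fold, 48.4-fold and 18.8-fold. Mbp, which fuses the cytoplasmic faces of the membrane, rose less, 5.09-fold, from 12.79 ± 0.06 to 15.14 ± 0.03. Mal rose 12.9-fold, while its relative Mal2 was the 1 member that fell, 5.75-fold, from 12.83 ± 0.26 to 10.31 ± 0.47; Mal sorts proteins in oligodendrocytes and Mal2 belongs to the list by family alone. Gpm6b, Cd81 and Omg rose by 2.74-fold, 3.3-fold and 3.5-fold.

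Enzymes and receptors of myelin lipids rose in most cases. In the list of sphingolipid and fatty acid genes 23 of 30 tested members were higher, none was lower and 7 were not called, with a median log2 difference of 2.5. Cers2, the ceramide synthase that makes very long chain ceramides, stood at 12.56, 12.68 and 12.62 in bound RNA and 7.22, 6.86, 7.36, 7.49 and 6.62 in cortex total RNA, 45.5-fold higher. S1pr5, the sphingosine phosphate receptor of oligodendrocytes, rose 58.2-fold and Lpar1, a receptor for lysophosphatidic acid, 32.5-fold. The steps that build galactolipids rose together: Ugt8a, which adds galactose to ceramide, 16.5-fold; Fa2h, which hydroxylates the fatty acid, 13.9-fold; and Gal3st1, which makes sulfatide, 12.6-fold. Of the elongases, Elovl7 and Elovl1 rose 22.9-fold and 21.4-fold, Elovl5 rose 4.71-fold and Elovl6 was not called (log2 difference 0.65, adjusted p = 0.00652). The stearoyl desaturases Scd1, Scd2 and Scd3 were 14-fold, 19.2-fold and at least 3.99-fold higher, the last dim in cortex total RNA. Of the enzymes of first commitment, Sptlc2 and Sptlc1, subunits of serine palmitoyltransferase, rose 8.19-fold and 2.09-fold, and Fasn, which makes palmitate, rose 3.12-fold. The call of Sptlc1 was lost without the third bound array (log2 difference 0.91).

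Cholesterol synthesis was mixed, although cholesterol is a main lipid of myelin. Of 19 tested members 8 were higher, 2 were lower and 9 were not called, and the median log2 difference was 0.69. Ebp, a late sterol isomerase, rose 6.5-fold, from 8.25, 8.41, 8.40, 8.45 and 8.39 in the cortex total arrays to 11.11, 10.89 and 11.25 in the bound arrays. No array of either group came near the other for Ebp. Srebf1, a transcription factor of lipid synthesis, rose 5.43-fold, Lbr 5.05-fold and Sc5d 4.52-fold. Fdft1, the first enzyme committed to sterols, stood at 12.18 ± 0.18 against 12.42 ± 0.20 and Sqle, which makes squalene epoxide, at 11.55 ± 0.25 against 11.06 ± 0.13; neither was called (adjusted p = 0.332 and 0.0813). Tm7sf2, a sterol reductase, fell 4.02-fold and Ggps1, of the side branch to geranylgeranyl, 2.22-fold. For Ggps1 the call was lost without the third bound array (log2 difference -0.77) and with the values as deposited (-0.74).

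Transcription factors of the lineage moved both ways. Of 23 tested members of the list 14 were higher and 6 lower, with a median log2 difference of 1.85. The 14 include Hhip and Carhsp1, which are not transcription factors. Nkx6-2, a homeodomain factor of myelinating cells, stood at 11.81, 11.85 and 11.79 in bound RNA and at 5.27, 5.23, 5.09, 5.85 and 4.80 in cortex total RNA. The cortex arrays were dim apart from the fourth, and Nkx6-2 was at least 70.1-fold higher (adjusted p = 8.82e-16). Sox8 rose at least 33-fold, St18 at least 41.7-fold, Nkx2-2 at least 39.5-fold and Sox10 at least 19.6-fold, and all of these were dim in cortex total RNA. Olig2, the oligodendrocyte lineage factor, stood at 10.90, 10.97 and 11.34 against 6.21, 6.14, 5.91, 6.03 and 6.64, 29.5-fold higher, and Myrf rose 16.5-fold, from 7.28 ± 0.44 to 11.33 ± 0.34. Olig1 rose less, 3.6-fold. The 6 that fell were Sox5, Sox6, Hes1, Hes5, Id2 and Id4, each known to hold back oligodendrocyte differentiation and each active in progenitors or astrocytes. Sox5, Sox6, Hes1 and Hes5 were dim in bound RNA and fell at least 2.57-fold, at least 1.34-fold, at least 2.91-fold and at least 2.49-fold, whereas Id2 and Id4 stayed measurable at 9.23 ± 0.13 and 9.34 ± 0.10 and fell 4.97-fold and 5.05-fold.

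Members of a list named for axon support, acetate and iron handling were mostly higher, but its iron genes were divided. Of 21 tested members 15 rose and 3 fell, with a median log2 difference of 2.65. Slc16a1, the monocarboxylate transporter MCT1 through which lactate leaves the cell, was dim at 3.58, 3.58, 3.67, 3.61 and 3.60 in the cortex total arrays and stood at 9.62, 9.62 and 9.70 in the bound arrays, at least 16-fold higher (adjusted p = 2.88e-24). Hapln2, a link protein of the matrix at nodes, and Klk6, a secreted protease, were also dim in cortex total RNA and rose at least 11.2-fold and at least 4.79-fold. Aspa, which releases acetate from N-acetylaspartate, rose 37.9-fold, Gatm, the first enzyme of creatine synthesis, 35.3-fold, and Trf, the iron carrier transferrin, 32.8-fold. Fth1, the ferritin heavy chain, was not called (12.06 ± 0.03 in bound RNA and 12.90 ± 0.49 in cortex total RNA). The iron exporter Slc40a1 was among the 3 that fell (log2 difference -2.37), but it was dim in both groups. Car2, the carbonic anhydrase of the sheath, rose 7.71-fold. Ldhb, the lactate dehydrogenase subunit that favours pyruvate, fell 2.41-fold. That fall of Ldhb missed the 2-fold limit with the values as deposited (log2 difference -0.74) and with spike-in scaling (-0.63).

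Molecules of the contact between glia and axon moved both ways. Of 27 tested members 13 rose and 8 fell, with a median log2 difference of 0.85. Itgb4, an integrin subunit, was at 2.29, 2.29, 2.32, 2.29 and 2.30 in cortex total RNA, near the lowest value of these arrays, and at 9.86, 9.70 and 9.49 in bound RNA, at least 16.5-fold higher (adjusted p = 3.05e-17). Cntn2, a contactin of the juxtaparanode, rose at least 5.74-fold, Efnb3, an ephrin with inhibitory effect on axon growth, 44.1-fold, and Plxnb3, a plexin, 13.1-fold. Among the 8 that fell were Cntn1 and Cntnap2, axonal partners at the paranode and juxtaparanode, by 6.19-fold and 5.51-fold, and Lingo1 and Rtn4rl1, axonal receptors for growth inhibitors, by 6.62-fold and 5.64-fold. Rtn4, the growth inhibitor Nogo, was not called (11.17 ± 0.06 against 11.73 ± 0.11).

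Of the 4 connexins that were tested, the pair known from oligodendrocytes rose and the pair known from astrocytes fell. Gjb1, the connexin of myelin, was at 2.08, 2.08, 2.08, 2.08 and 2.08 in cortex total RNA, the lowest value the arrays take, and at 9.76, 9.59 and 9.52 in bound RNA, at least 15.8-fold higher. Gjc3, a further oligodendrocyte connexin, rose at least 11.5-fold, from 4.13 ± 0.11 to 9.16 ± 0.56. Gja1 and Gjb6, the astrocyte connexins, fell 4.55-fold and 5-fold. In the whole list of connexins and of potassium and chloride handling 6 of 19 tested members were higher and 9 lower, with a median log2 difference of -0.62. Slc12a2, a chloride importer, rose 12-fold, Kcnj10, the potassium channel Kir4.1, 6.7-fold and Atp1b3, a sodium pump subunit, 8.17-fold. The neuronal subunit Atp1b1 fell 2.74-fold and the chloride exporter of neurons, Slc12a5, 3.84-fold. The fall of Atp1b1 missed the 2-fold limit with the values as deposited (log2 difference -0.94) and with spike-in scaling (-0.84). The channel partner Kcnj16, known from astrocytes, fell to near the lowest value of the arrays, 2.18 ± 0.00, but was also dim in cortex total RNA at 5.12 ± 0.02. Fxyd1, Fxyd6 and Fxyd7, modulators of the sodium pump, all fell, by at least 1.07-fold, 7.56-fold and 8.99-fold.

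**Figure D2:**
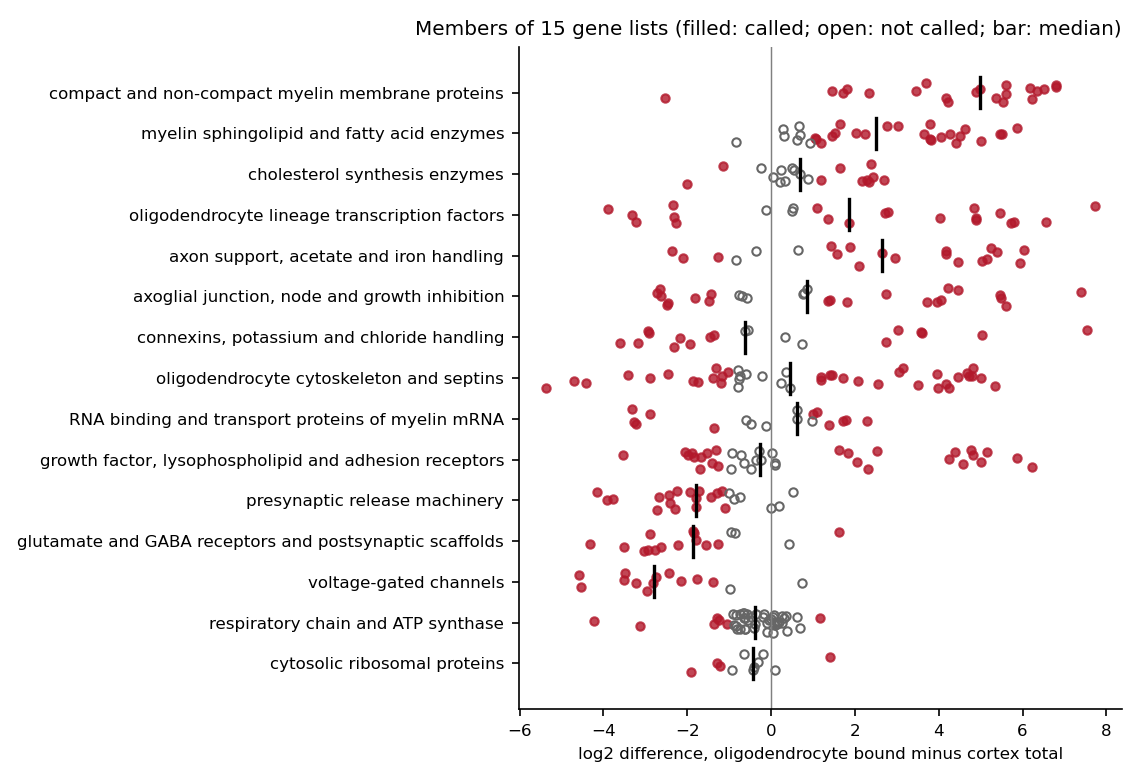
Log2 difference of each tested member (x axis, mature oligodendrocyte bound RNA minus cortex total RNA) in 15 gene lists; filled points were called, open points were not, and the bar is the list's median. Medians run from 5.0 in the myelin membrane list to -2.78 in the voltage-gated channel list, beside -0.04 over all tested genes.

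The cytoskeleton list held large changes on both sides. Of 43 tested members 21 were higher and 13 lower, with a median log2 difference of 0.45. Tppp3 and Map7, which stabilize microtubules, rose 32.2-fold and at least 9.14-fold, and Anln and Septin8, of the septin filaments that stiffen myelin, 27.8-fold and 18.1-fold. Septin4 rose 11.4-fold, Septin7 2.27-fold, and Septin9 fell 3.64-fold. Gsn, the actin severing protein gelsolin, stood at 14.58, 14.41 and 14.80 in bound RNA against 10.25, 9.92, 9.40, 10.29 and 9.53 in cortex total RNA, 26.3-fold higher, with no overlap of the groups. Bin1, which shapes membranes, rose 18.9-fold and Tubb4a, a tubulin abundant in oligodendrocytes, 5.83-fold. Map2, which marks dendrites, was at 2.28 ± 0.01 in bound RNA and 6.99 ± 0.09 in cortex total RNA, and Kif5a, a neuronal kinesin, at 2.70 ± 0.02 and 8.06 ± 0.11; both were dim in bound RNA, lower by at least 2.55-fold and at least 5.35-fold. Sptan1, the spectrin found in axons and in glia alike, fell 21.4-fold. Its bound arrays were at 8.71, 9.17 and 7.97 and its cortex arrays at 13.14, 13.54, 12.35, 13.09 and 13.07. The spread within each group was wider than for most named genes, and the groups still lay far apart.

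RNA-binding proteins changed in both directions. Of 17 tested members 6 rose and 5 fell, with a median log2 difference of 0.62. Qk, the protein that retains and splices myelin messages, rose 4.9-fold, from 9.55 ± 0.11 to 11.85 ± 0.32. Hnrnpa2b1, which carries Mbp message along the processes, was not called (log2 difference 0.62, adjusted p = 0.0202). The neuronal RNA-binding proteins Rbfox1, Stau2, Elavl2 and Elavl4 fell 9.94-fold, 9.6-fold, 9.41-fold and 7.39-fold.

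Receptors for growth factors, lipids and adhesion gave 14 rises and 11 falls among 36 tested members, with a median log2 difference of -0.27. Besides Gpr37 and the lipid receptors, the receptors that rose most were Ddr1, a collagen receptor, at least 25.6-fold, and Fgfr2, a fibroblast growth factor receptor, 19-fold, from 6.90, 6.84, 6.98, 6.97 and 6.12 to 11.04, 10.94 and 11.05. The Cdc42 effectors Cdc42ep1 and Cdc42ep2 and the exchange factor Dock10 rose 35.8-fold, 23.8-fold and 27.2-fold. Gpr37l1, the astrocyte relative of Gpr37, fell 3.27-fold, and the neurotrophin receptors Ntrk2 and Ntrk3 fell 3.94-fold and at least 1.94-fold. The neuregulin receptors Erbb2, Erbb3 and Erbb4 did not pass the filter on dim genes.

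The 12 largest measured rises, among genes above the dim limit in both groups and without overlap of arrays, ran from 112-fold (Cd9) to 58.1-fold (Tnfaip6, which binds hyaluronan), and besides the genes already named were Tmem63a, Evi2a, Litaf, Ddc, Ppp1r14a and Pdlim2. Ddc, the decarboxylase known for the synthesis of dopamine and serotonin, stood at 12.98, 12.90 and 13.03 in bound RNA and at 7.62, 7.01, 6.94, 7.20 and 6.26 in cortex total RNA, 62.4-fold higher (adjusted p = 3.69e-12). Ppp1r14a, an inhibitor of myosin phosphatase, stood at 13.56, 13.52 and 13.19 against 7.86, 7.34, 6.85, 7.87 and 7.47, 61.7-fold higher. For both genes the lowest bound array was more than 5 log2 units above the highest cortex array. Tmem63a, a mechanically gated channel, rose 72.6-fold, Evi2a 63.1-fold, Litaf, a protein of late endosomes, 63-fold, and Pdlim2, which binds actin, 60.9-fold.

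Among genes dim in cortex total RNA, those with the highest levels in bound RNA were Pde8a, Nkx6-2, Pcolce2, Gstm7, Car14 and Cmtm5. Pde8a, a phosphodiesterase of cyclic AMP, stood at 3.91, 3.83, 3.83, 3.82 and 3.83 in the cortex arrays and at 12.22, 12.22 and 12.13 in the bound arrays, at least 93.3-fold higher (log2 difference 8.34, SE 0.22, adjusted p = 1.15e-23). Its cortex values were nearly equal in all 5 arrays. Pcolce2, an enhancer of collagen processing, rose at least 71.7-fold, Gstm7, a glutathione transferase, at least 64.7-fold, Car14, a membrane carbonic anhydrase, at least 63.9-fold, and Cmtm5 at least 54.5-fold.

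**Figure D3:**
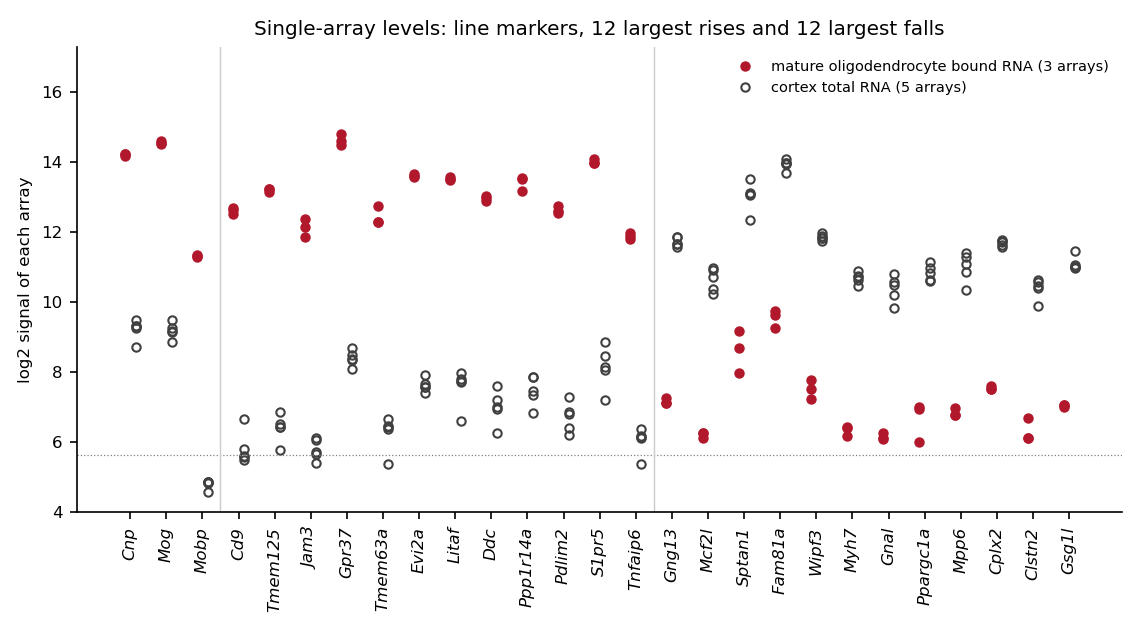
Log2 signal (y axis) of each of the 3 bound arrays (filled) and 5 cortex total arrays (open) for the marker genes Cnp, Mog and Mobp, the 12 largest rises and the 12 largest falls measured above the dim limit (dotted line) in both groups. For each of the 27 genes the groups stand apart, by more than 3 log2 units between their nearest arrays.

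Genes of synapses and of neuronal excitability were lower with few exceptions. Of 23 tested genes of the presynaptic release machinery none was higher and 17 were lower (median log2 difference -1.80). Of 17 receptor and scaffold genes of the postsynaptic side 1 was higher and 13 lower (-1.86), and of 14 voltage-gated channel genes none was higher and 12 lower (-2.78). Cplx2, which clamps vesicle fusion, stood at 7.53, 7.61 and 7.52 in bound RNA and at 11.57, 11.76, 11.78, 11.73 and 11.64 in cortex total RNA, lower by 17.7-fold (adjusted p = 4.18e-10). Pclo, of the active zone, was lower by 15-fold, and Syt1, the calcium sensor of release, was dim in bound RNA and lower by at least 3.53-fold. Snap25, of the fusion complex, remained high in bound RNA, at 14.06, 14.12 and 13.92 against 15.26, 15.10, 15.22, 15.22 and 15.26, and was 2.27-fold lower. With the values as deposited that difference of Snap25 was -0.73 on the log2 scale, and with spike-in scaling -0.63, short of the 2-fold limit on both. On the postsynaptic side Homer1, a scaffold, fell at least 9.38-fold, Gabrb1 and Gabrb2, subunits of GABA receptors, 11.4-fold and 6.85-fold, and Grm5, a glutamate receptor, 8.13-fold. Grm3, a glutamate receptor known from glia, was the 1 that rose, 3.05-fold, from 10.84 ± 0.30 to 12.45 ± 0.05. Among the channels the sodium channel genes Scn1a, Scn2a and Scn8a fell 9.36-fold, 7.83-fold and 11.3-fold. The potassium channel gene Kcna1 was not called (11.39 ± 0.07 in bound RNA, 10.65 ± 0.04 in cortex total RNA, a log2 difference of 0.74).

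The 12 largest falls measured above the dim limit in both groups ran from 23.7-fold (Gng13, a G protein subunit) to 16.8-fold (Gsg1l, an auxiliary subunit of AMPA receptors). Gng13 stood at 7.11, 7.28 and 7.12 in bound RNA and 11.68, 11.86, 11.87, 11.68 and 11.58 in cortex total RNA. The others besides Cplx2 and Sptan1 were Mcf2l, Fam81a, Wipf3, Myh7, Gnal, Ppargc1a, Mpp6 and Clstn2, at 21.5-fold, 20.9-fold, 20.5-fold, 20.4-fold, 18.7-fold, 18.2-fold, 17.8-fold and 17-fold. Ppargc1a, a coactivator of mitochondrial genes, stood at 7.01, 6.95 and 6.02 in bound RNA, the third array lying lower than the other 2, and at 10.98, 10.60, 11.15, 10.64 and 10.84 in cortex total RNA.

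Genes dim in bound RNA but high in cortex total RNA included noncoding transcripts. Meg3, a long noncoding RNA, stood at 5.16, 5.19 and 4.43 in the bound arrays and 12.12, 12.14, 12.74, 12.30 and 11.55 in the cortex arrays, at least 92.2-fold lower (adjusted p = 2.09e-21). Snhg11, a host transcript of small nucleolar RNA, stood at 2.75, 2.75 and 2.72 against 10.08, 10.49, 10.71, 10.41 and 10.92, at least 29.4-fold lower. Neither RNA is translated, and both were also dim in the bound RNA of neurons (4.09 and 5.45), astrocytes (2.70 and 2.31) and progenitors (5.22 and 4.01). Homer2, a postsynaptic scaffold, Syne1, of the nuclear envelope, Sipa1l1, of dendritic spines, and Ankrd63 completed this group, lower by at least 59.1-fold, at least 30.2-fold, at least 23.3-fold and at least 20.6-fold. Homer2 was at 10.14 in neuron, 8.85 in astrocyte and 10.39 in progenitor bound RNA, all above its 3.86 ± 0.02 in the mature oligodendrocyte arrays.

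Markers of the cells from which oligodendrocytes derive were low. Of 9 tested progenitor markers 5 were lower, 1 was higher and 3 were not called, and 5 were dim in both groups. Ptprz1, a receptor phosphatase of progenitors and astrocytes, was at 2.89, 2.88 and 2.86 in bound RNA and 9.06, 8.75, 9.75, 9.26 and 9.58 in cortex total RNA, at least 12.4-fold lower. Lhfpl3 fell at least 3.08-fold, Rlbp1 3.22-fold and Scrg1 2.12-fold, the last with overlapping arrays. Without the fifth cortex array, the first bound array or the second, Scrg1 missed the 2-fold limit (log2 differences -0.95, -0.83 and -0.92). Pdgfra, the defining receptor of progenitors, was dim in both groups, at 3.38, 3.38 and 3.39 in the bound arrays and 4.75, 4.72, 4.91, 4.75 and 4.74 in the cortex arrays, as was Cspg4, the 1 member called higher (4.09 and 2.47) but not called with the values as deposited (log2 difference 0.90). Vcan, C1ql1 and Matn4 were near the lowest value of the arrays in both groups. The summed signal of the list was log2 7.45 to 8.15 in the bound arrays and 9.93 to 10.50 in cortex total RNA, against 14.60 to 14.99 in progenitor bound RNA.

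Genes of the step between progenitor and mature cell were divided. Enpp6, which marks newly formed oligodendrocytes, was dim in cortex total RNA (3.79 ± 0.11) and rose at least 4.31-fold, to 7.75 ± 0.16, and Cnksr3 rose 2.99-fold. Gpr17, the receptor of committed precursors, fell 2.65-fold, from 8.41, 8.84, 9.12, 9.08 and 8.79 to 7.29, 7.29 and 7.74, and Bmp4, a signal made at the same stage, fell at least 1.7-fold and was dim in bound RNA. Bcas1 and Fyn missed the 2-fold limit (log2 differences 0.89 and -0.49), Itpr2 was not called, and Tcf7l2, called higher, was dim in both groups, as Itpr2 was. The call of Tcf7l2 was lost with the values as deposited (log2 difference 0.35).

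Neuron markers were measured in the oligodendrocyte arrays. Of 13 neuron markers 10 were lower than in cortex total RNA, 3 were not called and none was higher, yet 12 of the 13 remained above the dim limit in bound RNA. Stmn2, a neuronal microtubule regulator, was at 10.45, 10.33 and 10.59 in bound RNA against 12.47, 12.41, 12.15, 12.23 and 13.01 in cortex total RNA, 4-fold lower. Gad1, the enzyme that makes GABA, was at 11.74, 11.56 and 12.12 against 12.38, 12.26, 12.24, 12.12 and 12.94 and was not called (adjusted p = 0.0867). The summed signal of the neuron markers was log2 14.72 to 14.76 in mature oligodendrocyte arrays, 16.04 to 16.30 in cortex total, 16.15 to 16.24 in neuron, 14.88 to 15.05 in progenitor and 10.97 to 12.57 in astrocyte bound RNA. Snap25 is itself among these markers, at a mean of 14.04 in mature oligodendrocyte and 14.67 in progenitor bound RNA. The sums are therefore no separate measure to set beside its level. The part of neuronal RNA in any result was not tested.

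Astrocyte markers were also lower or not called. Of 13 astrocyte markers 9 were lower and 4 were not called, with 8 of the 13 above the dim limit in bound RNA. Slc1a2 and Aqp4, which define astrocytes, were at 2.08 ± 0.00 and 2.28 ± 0.01 in bound RNA, at or near the lowest value of the arrays, against 5.08 ± 0.25 and 4.78 ± 0.75 in cortex total RNA, and both were dim there as well. Aldh1l1, the gene of the astrocyte line, varied between bound arrays at 7.56, 6.99 and 8.60 and was not called against 8.33, 8.55, 8.0, 8.05 and 8.34. The summed signal of the list was log2 12.52 to 13.23 in bound RNA, 14.34 to 14.59 in cortex total and 16.40 to 16.62 in astrocyte bound RNA. Of 8 tested microglial markers 4 were lower and none higher; Csf1r, C1qb and Tyrobp fell at least 3.93-fold, at least 2.93-fold and at least 4.31-fold, while Ctss, the 1 measured member above the dim limit in bound RNA, was not called (9.20 ± 0.53 against 10.36 ± 0.43). Endothelial markers were dim in both groups throughout. Of 8 tested pericyte and muscle markers 4 were lower, Acta2 by 6.79-fold. The part of these cells in any result was not tested. Of 4 tested ependymal and choroid plexus markers 1 was higher, 2 were lower and 1 was not called. The 1 that rose was Foxj1, the factor of ciliated cells, from 2.08 ± 0.00 to 6.14 ± 0.28, by at least 1.41-fold. The 2 that fell, Clic6 and Ccdc153, were dim in both groups.

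In the lists of energy metabolism, ribosomal proteins, chaperones and immediate early genes most members were not called. Of 47 tested genes of the respiratory chain and ATP synthase 1 was higher, 6 were lower and 40 were not called, with a median log2 difference of -0.38. Ndufa9, of complex I, rose 2.24-fold, and Atp5g1, of the ATP synthase ring, fell at least 2.82-fold and was dim in bound RNA. Of 11 tested genes of cytosolic ribosomal proteins 1 was higher, 3 were lower and 7 were not called (-0.44): Rps6 rose 2.65-fold, while Rps15, Rpl15 and Rpl14 fell 3.75-fold, 2.43-fold and 2.32-fold. Of 10 tested glycolytic genes 4 fell and none rose (-0.87), the falls being those of Aldoc, Ldhb, Tpi1 and Eno2, at 2.96-fold, 2.41-fold, 2.23-fold and 2.15-fold. Several of these falls were ended by the scale: with spike-in scaling the log2 differences of Rpl14, Rpl15, Aldoc, Tpi1 and Eno2 were -0.66, -0.61, -0.95, -0.54 and -0.44, and that of Eno2 was -0.92 without the fifth cortex array and -0.97 without the second bound array. Of 15 tested chaperone and stress genes of the endoplasmic reticulum 3 rose and 1 fell (-0.23), and Hspa5, the main chaperone, was not called (11.27 ± 0.38 against 11.77 ± 0.23). Of 15 tested immediate early genes, which respond within minutes to activity and handling, none rose and 6 fell (-1.27), Egr1 from 14.14, 14.43, 14.13, 14.06 and 13.98 in the cortex arrays to 12.12, 12.25 and 12.51 in the bound arrays, 3.62-fold; Fos was not called (11.66 ± 0.48 against 13.05 ± 0.72).

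To ask which of these levels hold among bound RNAs alone, without total RNA, the 3 mature oligodendrocyte arrays were set against the mean of the neuron, astrocyte and progenitor bound RNA (9 arrays, each population weighted equally). By the same rule 1871 genes were higher (19.1% of 9799) and 2076 lower (21.2%). The split depends on the scale: 47.4% of called genes were higher here, 51.3% with the values as deposited and 68.9% with spike-in scaling, which moves the median of all tested genes from -0.03 to 0.49; for the comparison with cortex total RNA the shares were 47.6%, 53.3% and 56.9%. Both comparisons contain the same 3 oligodendrocyte arrays, so their values are given side by side and no likeness between them is read as a result.

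Myelin membrane genes were higher in 19 of 21 cases against the other bound RNAs, none was lower and the median log2 difference was 5.98, or 5.27 with dim arrays at the limit. Many levels on the other side were dim, and bounds here take each dim array of the 3 other populations at the limit. Mog rose at least 134-fold, Mag at least 60.4-fold and Mobp at least 41.5-fold. Trf, of the axon support and iron list, rose at least 186-fold. Cnp rose 38.5-fold and stood at 11.43 in progenitor and 9.48 in astrocyte bound RNA, but 5.97 in neurons. Ermn, a cytoskeletal protein of the sheath, rose 15.5-fold against cortex total RNA and at least 105-fold against the other bound RNAs, and Tppp, which promotes the polymerization of tubulin, 2.66-fold and at least 21.1-fold. Cd81 rose 3.3-fold against cortex total RNA but was not called against the other bound RNAs (log2 difference 0.72, adjusted p = 0.0001). Lipid genes were higher in 22 of 30 cases and lower in 1, Fads2, which was dim in mature oligodendrocytes (2.08 ± 0.00). Cholesterol genes were higher in 5 of 19 and lower in 2 (median log2 difference 0.37).

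By fitted differences, in which values under the dim limit count as they stand, the genes whose smaller rise of both comparisons was largest were Arsg, Emilin2, Itgb4, Insc, Adamtsl4, Pcolce2, Car14 and Gjb1. Arsg, a lysosomal sulfatase, stood at 11.37, 11.24 and 11.21 in the mature oligodendrocyte arrays, 3.45 in cortex total RNA and 3.78 on average in the other bound RNAs, at least 49.4-fold and at least 34.7-fold higher. Emilin2, a matrix glycoprotein, stood at 9.41, 9.42 and 9.73 and at 2.08, 2.08 and 2.08 in neurons, astrocytes and progenitors, the lowest value the arrays take. Insc, an adaptor of spindle orientation, and Adamtsl4, a secreted matrix protein, stood at 10.77 ± 0.17 and 10.57 ± 0.26, with 3.43 and 3.25 on average in the other bound RNAs. All 8 genes were dim in cortex total RNA and in at least 2 of the other populations, so each fold is a lower bound and their order is no order of measured size. Against cortex total RNA the bounds were at least 14.7-fold for Emilin2 and at least 15.8-fold for Gjb1. Such bounds cannot be ranked against measured folds, such as the 80.9-fold of Jam3 and 75.2-fold of Gpr37.

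Neuron markers were higher in 8 of 13 cases and lower in none, with a median log2 difference of 1.41. With dim values raised to the limit 4 of the 13 were called higher and the median was 0.34. The mean of the other populations weighs astrocytes and progenitors as much as neurons: Stmn2 was at 12.52 in neurons, 5.46 in astrocytes and 9.15 in progenitors, beside 10.45 in mature oligodendrocytes. Voltage-gated channel genes were higher in 4 of 14 cases (1 with dim values at the limit) and lower in 3, presynaptic genes higher in 7 of 23 (4 at the limit) and lower in 2 (1 at the limit), Cplx2 among them by 2.25-fold, a call lost with spike-in scaling (log2 difference -0.65). Respiratory chain genes were higher in none of 47 and lower in 11, and ribosomal protein genes higher in none of 11 and lower in 4. Progenitor markers were lower in 7 of 9 cases, Ptprz1 by at least 5.05-fold and Rlbp1, dim in neurons, by 14.2-fold. Genes called in opposite directions included Camta1, a calmodulin-binding transcription factor, 4.48-fold lower than in cortex total RNA and at least 2.4-fold higher than in the other bound RNAs, of which astrocytes were dim (2.58). Ptk2b, the kinase Pyk2, and Ryr2, a calcium release channel, were 3.66-fold and 3.54-fold lower than in cortex total RNA, and their calls as higher than the other bound RNAs rested on dim levels. With those raised to the limit the log2 differences of Ptk2b and Ryr2 were 0.96 and 0.41, and neither was called. Cenpq, a centromere protein, was at least 2.67-fold higher than in cortex total RNA and 3.58-fold lower than in the other bound RNAs. Myd88 and Chchd5 were dim in both groups of the first comparison.

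Across all 12 groups of arrays Cnp and Mog had their highest mean in mature oligodendrocytes. Mog was at 14.57 there, 13.76 in bound RNA of cortical Olig2 cells, 13.59 in Olig2 cells of the Recruited tumour, 11.20 in progenitors and 2.08 in neurons. Mobp was at 11.32 in mature oligodendrocytes and 11.33 in Olig2 cells, neighbours that are not separated beyond their SD of 0.03 and 0.04. Gjb1, Itgb4 and Emilin2 were lower in Olig2 cells (8.06, 7.55 and 6.74) than in mature oligodendrocytes (9.63, 9.69 and 9.52). Gpr17 and Pdgfra took the reverse order, at 14.05 and 10.35 in progenitors, 13.39 and 8.84 in Olig2 cells and 7.44 and 3.38 in mature oligodendrocytes. These levels are a description, with no test between the groups.

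**Figure D4:**
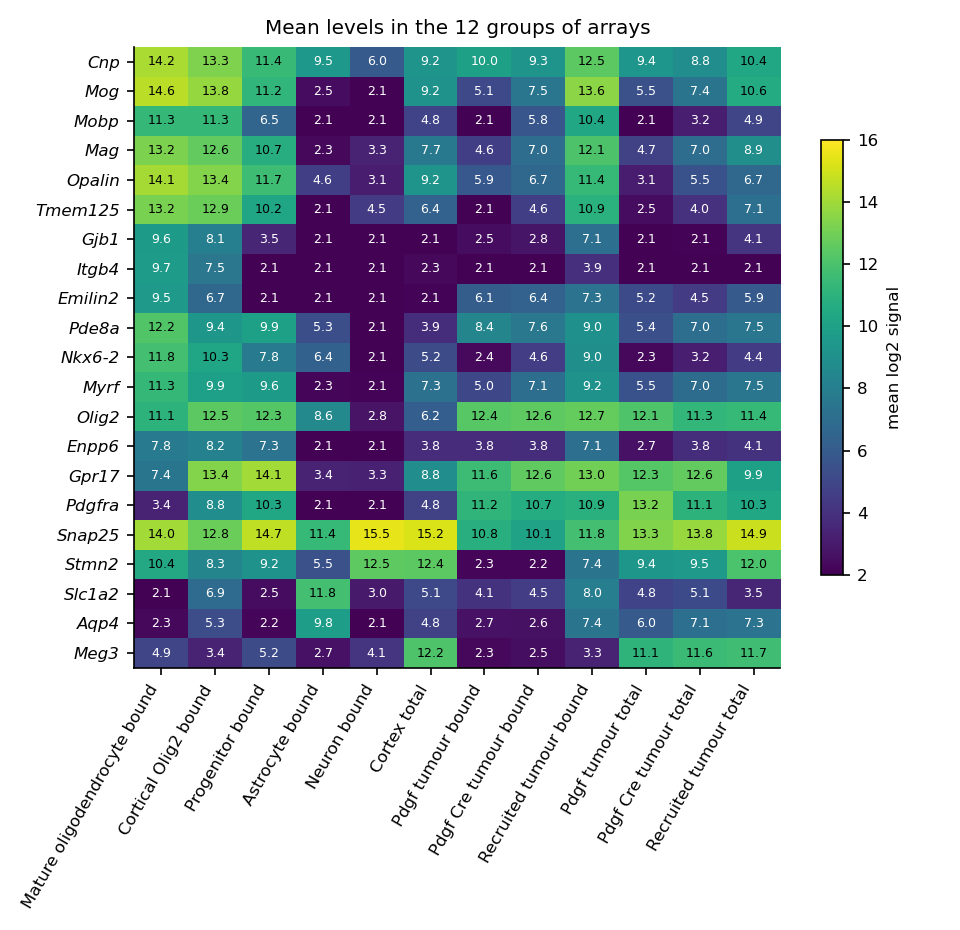
Mean log2 signal (colour and number) of 21 named genes (rows) in the 12 groups of arrays (columns, 5 arrays of cortex total RNA and 3 of each other group). Cnp, Mog, Mobp and Tmem125 are high in mature oligodendrocyte, cortical Olig2 and Recruited tumour bound RNA. Progenitor bound RNA also holds Cnp (11.43), Mog (11.20) and Tmem125 (10.21), with Mobp at 6.54. In the Recruited tumour Gjb1 (7.10) and Itgb4 (3.86) are lower than in mature oligodendrocytes, and Mog and Tmem125 vary widely (SD 2.00 and 2.92). Meg3 is high in the 4 groups of total RNA and dim in every bound RNA.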

How the data were processed

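RNA was hybridized to Affymetrix mouse arrays after biotin labelling, per the labels. The authors deposited 1 table of log2 signals, with GCRMA named in the submitters' processing notes and no version given; probe sets are numbered by Entrez gene and were named through the RefSeq gene table. The number of arrays limits the precision.

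Values were quantile normalized over the 38 arrays and fitted with limma 3.58.1 in R 4.3.3 as 12 group means (26 residual degrees of freedom, constant prior), and p values of the 9799 genes tested were adjusted by the Benjamini-Hochberg method. The contrasts were mature oligodendrocyte bound RNA minus cortex total RNA and minus the mean of 3 other bound populations. The fit was tested on simulated data. Replicate numbers in the titles were checked for pairing and not used.

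Members and lists were chosen with earlier results of these data known. Genes named were Cnp, Mog, Mobp and the genes of the other lines, the 12 largest measured rises and falls, the 6 highest levels among genes dim in the other group, up to 5 members of each list with the largest called change, the 8 largest joint rises and the 6 largest opposite changes; other members and genes were named after their values were seen. Lists are described by counts and medians, with no set test. Alternatives changed the scale, the filter, the floor, the prior, the call rule, the block and the arrays used.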

Additional observations from a re-analysis of the deposited data

Results flagged for a closer look

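In cortex total RNA, the 1 group of this comparison with more than 3 arrays, 49 of the 213 genes checked had an array whose distance to the nearest of the others took more than 0.71 of the range of the 5 arrays. Chance alone passes this limit for about 1 gene in 20, and genes share arrays, so these genes are no independent observations. The fifth array was the one apart for 23 of these genes. It was the lowest for Car14, Dock10, Elovl1, Enpp6, Ermn, Fgfr2, Litaf, Mag, Mobp, Myrf, Plxnb3, Rps6, Septin8, Tmem63a and Tnfaip6, with shares of the range of 0.967, 0.823, 0.814, 0.926, 0.738, 0.831, 0.811, 0.822, 0.861, 0.872, 0.741, 0.801, 0.795, 0.770 and 0.727 in that order. It was the highest for Bin1, C1ql1, Cd9, Eno2, Gjc3, Id2, Map7 and Syt1, with shares of 0.828, 1.000, 0.738, 0.753, 0.874, 0.735, 0.822 and 0.819. The second array stood apart for Adamtsl4, Cnksr3, Efnb3, Insc, Matn4, Myd88, Snap25 and Sox10, with shares of 0.988, 0.806, 0.726, 0.827, 1.000, 0.957, 0.755 and 0.735. The third array stood apart for Atp5g1, Elovl6, Emilin2, Gja1, Gsg1l, Pcolce2, Pdgfra and Scn1a, with shares of 0.796, 0.766, 1.000, 0.716, 0.816, 0.818, 0.833 and 0.739. The first array stood apart for Bcas1, Bmp4, Elovl5, Gstm7 and Pde8a, with shares of 0.769, 0.790, 0.771, 0.862 and 0.863. The fourth array stood apart for C1qb, Fads2, Hnrnpa2b1, Klk6 and Pllp, with shares of 0.826, 0.736, 0.882, 0.893 and 0.816.

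Among myelin genes the fifth array lay at 7.19 for Mag, where the other 4 ran from 7.71 to 7.82, at 6.51 for Myrf against 7.41 to 7.54, and at 9.64 for Ermn against 10.34 to 10.58. For Eno2 it lay at 13.61 against 12.53 to 12.80 and for Syt1 at 8.35 against 7.11 to 7.34. Without the fifth array 2464 genes were higher in mature oligodendrocyte bound RNA and 2714 lower, beside 2465 and 2716 with it.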

How the results depend on the processing

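Of 2465 higher and 2716 lower genes against cortex total RNA, the stricter call (adjusted p under 0.01, log2 difference of at least 2) gave counts of 1241 and 1428, and of 1871 and 2076 against the other bound RNAs 800 and 779. With no minimum fold the latter counts were 3257 and 3447, and with spike-in scaling 3341 were higher. The lower genes of that comparison numbered 1159 with the filter on the mean of the compared arrays and 1334 with genes dim in both groups left out, an alternative chosen after seeing the data; both test or call fewer dim genes. All other counts of the 4 stayed within 1.5 times the values given. Leaving out 1 of the 8 arrays gave 2441 to 2475 higher and 2685 to 2716 lower genes against cortex total RNA. Leaving out 1 of the 3 oligodendrocyte arrays gave 1838 to 1876 and 2008 to 2076 against the other bound RNAs, whose own 9 arrays were not left out.

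With the replicate number as a block the counts were 2468, 2709, 1874 and 2071, and Scrg1 (-0.83) and Eno2 (-0.88) were no longer called against cortex total RNA. The same-numbered arrays correlated at 0.109, -0.089 and -0.189 in their deviations from the group means, so the numbers were not taken as a pairing.

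One named gene reversed: with values under a signal of 50 raised to it, Gpr17 against the other bound RNAs went from 0.53 to -1.01 (log2 difference), a value set by the floor in neurons and astrocytes. Values as deposited ended the call of 10 named genes against cortex total RNA and of none against the other bound RNAs. Spike-in scaling ended the call of 10 and 8, and raising values under a signal of 50 to it that of 15 and 11. List counts given against cortex total RNA include rises and falls whose bound is under 2-fold. Examples of falls are Sox6 (at least 1.34-fold), Bmp4 (at least 1.7-fold) and Fxyd1 (at least 1.07-fold). Examples of rises are Mvk (at least 1.13-fold) and Srebf2 (at least 1.36-fold), both of the cholesterol list. Differences between dim levels have no measured size, and small folds between bright levels depend on the scale.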

Other observations

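Genes outside the rule for named genes were also higher in mature oligodendrocyte bound RNA, and those given here were chosen after their values were seen, as an outline of functions not yet described. Gamt, the enzyme after Gatm in creatine synthesis, stood at 10.05, 10.14 and 10.15 in the bound arrays and 2.08, 2.13, 2.08, 2.10 and 2.08 in the cortex total arrays, at least 22.1-fold higher, and was at least 10.1-fold higher than in the other bound RNAs. No bound array came down to a cortex array. Npc1, which moves cholesterol out of lysosomes, was 18.4-fold higher than in cortex total RNA and at least 12.2-fold higher than in the other bound RNAs. Apod, a carrier of lipids, was at least 16-fold and at least 15.4-fold higher, Slc44a1, a choline transporter, 50.1-fold and 30.4-fold, and Abca8a, a membrane transporter, at least 41-fold and at least 22-fold. Il33, a nuclear cytokine released by damaged cells, stood at 14.43 ± 0.13 in bound RNA and 9.98 ± 0.48 in cortex total RNA (mean ± SD, n = 3 and 5) and was 21.8-fold higher. The proteases Adamts4 and Ctsk, of matrix and lysosome, were 21.5-fold and at least 21.9-fold higher.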
